A study of Schizosaccharomyces pombe with 13 samples.

Results

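The addition of xap5 loss to a strain that already lacked pht1 was described in fission yeast (Schizosaccharomyces pombe), by setting the double deletion against the pht1 deletion. The 2 strains account for 6 of the 13 libraries of the series, 3 each. The double deletion carries SPCC1020.12c::KanMx4, which removes xap5, and SPBC11B10.10c::NatMx4, which removes pht1. The pht1 deletion carries SPBC11B10.10c::NatMx4 alone. Both strains are haploid, labelled h-, in the ED668 background with ade6-M216, ura4-D18 and leu1-32, and both were collected in exponential growth at 37 °C in EMM50 after a preculture at 30 °C in YES. The wild type (4 libraries), against which the authors computed every fold, is labelled h+ with the same 3 auxotrophic markers. The xap5 deletion (3 libraries), given beside them in places, carries SPCC1020.12c::KanMx4 in an h+ Bioneer strain with those markers. The labels give 3 replicates for each genotype, with nothing on whether these were separate cultures.

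The gene pht1 encodes H2A.Z, a histone variant that the SWR1 complex places in nucleosomes near gene starts. Xap5 is a conserved nuclear protein, and the series asks whether it works with H2A.Z to hold back aberrant transcripts. Such transcripts include RNA from the strand opposite a gene, RNA of retrotransposons and their long terminal repeats (LTRs), and RNA from stretches between genes. The stress genes of this yeast are under the MAP kinase Sty1 and the transcription factor Atf1, and heat shock genes are under Hsf1.

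The authors' deposited tables give, for each entry, a log2 fold of each deletion strain against wild type with an adjusted p-value, and no value per library is used here. Libraries held a stated mean of 11.8 M reads, and the precision behind a single entry is unknown. For each entry the deposited log2 fold of the pht1 deletion was subtracted from that of the double deletion, so a positive difference means a higher level in the double deletion. Wild type cancels in this difference only if both folds were made on 1 scale, which the sources used here do not state. The difference has no error and was not tested. An entry was called shifted under 2 conditions. Its deposited adjusted p-value against wild type was under 0.05 in the double deletion or in the pht1 deletion, and the 2 log2 folds lay 1 or more apart. Words such as rose and fell are kept for folds against wild type that passed the authors' test. The smallest difference counted in the sense table was 1.0008 in size, and the largest left uncounted under the same adjusted p-value was 0.9976. Rows with any log2 fold above 20 in size were left out, which removed SPBPB21E7.06, SPBC3E7.17 and SPNCRNA.257. In those 3 rows the largest deposited log2 fold in size was 31.3, 31.1 and 27.3, while the largest kept in the sense table was 6.94.

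The strains were first read at the deleted genes. The xap5 entry (SPCC1020.12c) fell by 2.11 in the double deletion (authors' adjusted p = 0.000729), against a deposited log2 fold of 0.34 in the pht1 deletion (adjusted p = 0.49). In the xap5 deletion it fell by 3.11 in the authors' table. One stretch of the authors' intergenic table lies inside the reference span of xap5 (chromosome III 755406 to 755468) and was not low in the double deletion. Its deposited log2 fold was −0.09 in the double deletion (adjusted p = 0.964) and 0.92 in the pht1 deletion (adjusted p = 0.409), against −7.00 in the xap5 deletion. Whether the double deletion carries the same xap5 deletion cannot be told from these tables, and each statement on loss of xap5 rests on the label and on the lower xap5 entry. The pht1 entry (SPBC11B10.10c) fell by 1.55 in the double deletion and by 2.13 in the pht1 deletion in the authors' table. The labels give h- for both strains, the mating type that expresses M genes, and h+ for wild type. The mating genes followed this only in part in the double deletion and did not follow it in the pht1 deletion. The median deposited log2 fold of the M genes was 0.89 in the double deletion and 0.16 in the pht1 deletion. Of 10 M mating genes 9 rose and 1 fell in the double deletion, and none rose and 1 fell in the pht1 deletion, by the authors' adjusted p-value. The M gene mat1-Mc had a deposited log2 fold of 0.84 in the double deletion and 0.16 in the pht1 deletion, against −4.27 in the xap5 deletion, which is labelled h+ like wild type. None of 5 P mating genes fell in either h- strain. Of all sense entries 30.5% rose and 34.3% fell in the double deletion, and 13.5% rose and 11.1% fell in the pht1 deletion.

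Antisense signal rose in both strains at pht1 itself and at a gene next to xap5, while xap5 itself had no antisense entry. At pht1 itself the deposited antisense log2 fold was 4.05 in the double deletion (adjusted p = 1.11e-38) and 2.00 in the pht1 deletion (adjusted p = 1.34e-08). At SPCC1020.13c, a phospholipase gene next to xap5, the deposited antisense log2 fold was 5.08 in the double deletion (adjusted p = 3.28e-75) and 1.85 in the pht1 deletion (adjusted p = 9.63e-10). In the xap5 deletion the antisense log2 fold at SPCC1020.13c was 4.21 (authors' adjusted p = 1.23e-53). Of the 4 sense entries next to xap5, oca2 was shifted, with a deposited log2 fold of 1.60 in the double deletion and 0.32 in the pht1 deletion. The other 3, eap1, SPCC1020.13c and emc6, had authors' log2 folds between −0.10 and 0.15 in the double deletion. Next to pht1, wwm1, cdc2, shy1 and naa25 were not shifted.

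More sense entries were shifted higher than lower when xap5 was also lost. Of 5744 sense entries, 550 were shifted higher (9.58% of those compared) and 147 were shifted lower (2.56%). The median difference over all sense entries was −0.01, so the surplus of higher shifts did not come with a displacement of the whole table. Against wild type, 1752 sense entries rose in the double deletion by the authors' adjusted p-value (30.5%) and 1973 fell (34.3%). In the pht1 deletion 774 rose (13.5%) and 637 fell (11.1%). Of the entries shifted higher, 547 had an authors' adjusted p-value under 0.05 in the double deletion and 273 had one in the pht1 deletion. Large differences were mostly upward, with 143 at 2 or more and 5 at −2 or less.

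**Figure D1:**
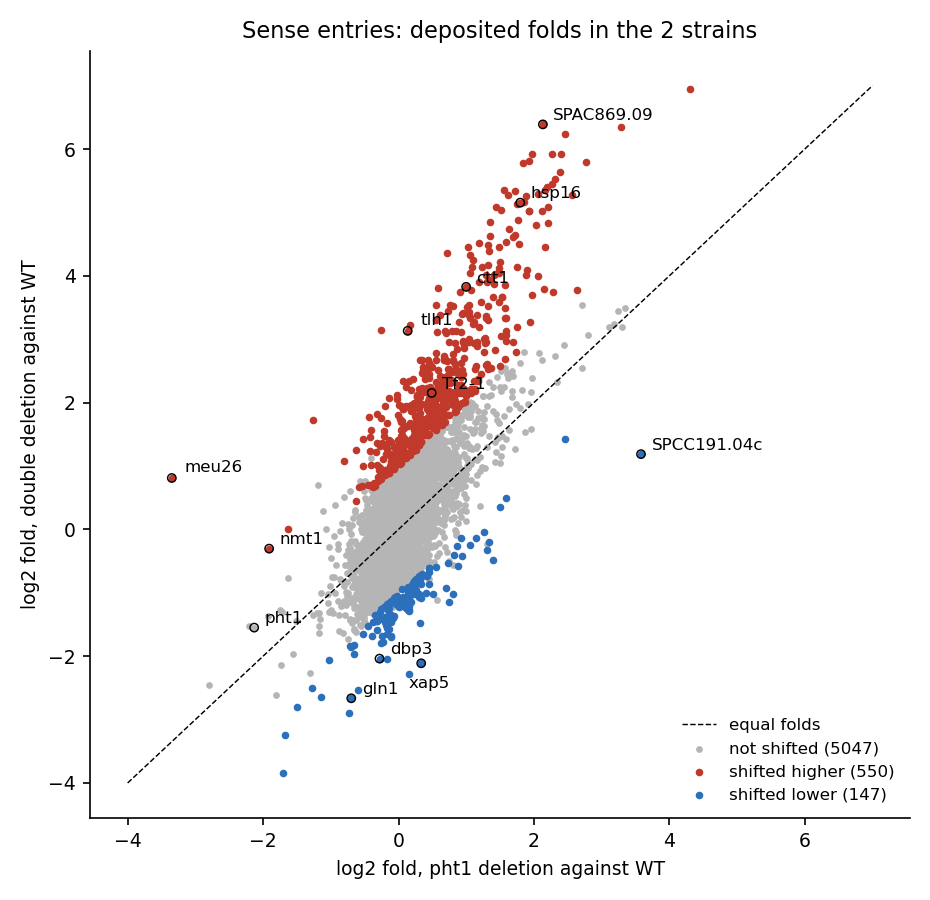
Deposited log2 fold against wild type of each of 5744 sense entries, in the double deletion (vertical) and in the pht1 deletion (horizontal). The dashed line marks equal folds, and the 550 entries shifted higher in the double deletion lie above it and the 147 shifted lower lie below it.

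Protein genes and noncoding RNAs of the sense table had different medians. Among 5039 protein genes 380 were shifted higher (7.54%) and 129 lower (2.56%), with a median difference of −0.06. Among 656 annotated noncoding RNAs 157 were shifted higher (23.9%) and 13 lower (1.98%), with a median difference of 0.45. Of all sense entries 9.58% were shifted higher and 2.56% lower. The difference between these medians was not tested.

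The protein gene with the highest difference was SPAC869.09, which encodes a conserved fungal protein and lies near an end of chromosome I. Its deposited log2 fold was 6.39 in the double deletion (adjusted p = 2.97e-70) and 2.13 in the pht1 deletion (adjusted p = 5.48e-10), a difference of 4.26. Next was meu26, whose difference of 4.16 came from a low level in the pht1 deletion: its deposited log2 fold was 0.81 in the double deletion (adjusted p = 0.234) and −3.35 in the pht1 deletion (adjusted p = 0.0154). The ThiJ domain gene hsp3102 had a deposited log2 fold of 5.81 in the double deletion and 1.93 in the pht1 deletion. The alpha-galactosidase gene mel1, which frees galactose from melibiose, had 5.28 in the double deletion and 1.62 in the pht1 deletion in the authors' table. The predicted phosphoketolase gene SPBC24C6.09c had a deposited log2 fold of 4.85 in the double deletion and 1.35 in the pht1 deletion. The other 10 of the 15 protein genes with the highest differences were prl65, cum1, ddr48, SPBPB21E7.10, SPCC757.02c, hhy1, SPAC4H3.08, SPAC11D3.01c, SPBPB21E7.02c and SPCC569.09. Their deposited log2 folds lay between 4.36 and 6.24 in the double deletion and between 0.71 and 2.46 in the pht1 deletion. Of the 15, all but meu26 rose in both strains by the authors' adjusted p-value. SPAC869.09, mel1, hhy1 and the 2 SPBPB21E7 genes lie within 100 kb of a chromosome end, where near-identical copies can share reads.

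Below the xap5 entry itself, the lowest protein genes were less far from 0. SPAC212.08c, a predicted GPI-anchored protein near an end of chromosome I, had a deposited log2 fold of −2.28 in the double deletion (adjusted p = 4.56e-07) and 0.16 in the pht1 deletion (adjusted p = 0.781). The orphan gene SPCC191.04c had a deposited log2 fold of 1.19 in the double deletion (adjusted p = 0.123), against 3.58 in the pht1 deletion (adjusted p = 4.38e-11). The gene rose in the pht1 deletion and did not pass the authors' test in the double deletion. The glutamine synthetase gene gln1 fell in both strains, by 2.66 in the double deletion and by 0.70 in the pht1 deletion in the authors' table. The sorbose reductase gene SPAC8E11.10 fell by 2.53 in the double deletion and by 0.60 in the pht1 deletion in the same deposited table. The adenine deaminase gene dea2 had a deposited log2 fold of −1.78 in the double deletion and −0.23 in the pht1 deletion. The RNA helicase genes dbp2 and dbp3 are described with ribosome biogenesis. The uracil phosphoribosyltransferase gene urg2 fell by 1.02 in the double deletion and rose by 0.80 in the pht1 deletion by the authors' values. The other 7 of the 15 lowest were SPBCPT2R1.02, SPAC212.12, fsh2, new25, SPBPB2B2.08, trp663 and xap5, of which the first 6 had differences between −1.89 and −1.55.

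Stress genes were higher in the double deletion than in the pht1 deletion. Of 38 genes of the environmental stress response, 26 were shifted higher and none lower, beside 9.58% of all sense entries shifted higher. The median difference of the list was 1.65, with a median deposited log2 fold of 2.16 in the double deletion and 0.47 in the pht1 deletion. The lists were compiled with earlier results of these data known, and the counts describe them only. The small heat shock gene hsp16 had a deposited log2 fold of 5.15 in the double deletion (adjusted p = 2.33e-99), 1.80 in the pht1 deletion (adjusted p = 9.98e-15) and 3.70 in the xap5 deletion. The metallothionein gene zym1 had 5.63 in the double deletion, 2.38 in the pht1 deletion and 3.28 in the xap5 deletion in the authors' table. The catalase gene ctt1, which breaks down hydrogen peroxide, had deposited log2 folds of 3.83 in the double deletion, 1.00 in the pht1 deletion and 2.59 in the xap5 deletion. All 3 rose in each of the strains by the authors' test, with the highest fold in the double deletion.

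Other members of the stress list had these values, and 33 of its 38 members had a difference above 0. The trehalose synthase gene tps1 had a deposited log2 fold of 2.22 in the double deletion and 0.30 in the pht1 deletion (adjusted p = 0.111). The trehalase gene ntp1 had 2.74 in the double deletion and 0.67 in the pht1 deletion in the authors' table. The glutathione peroxidase gene gpx1 had a deposited log2 fold of 3.39 in the double deletion and 1.02 in the pht1 deletion. The nuclear envelope gene ish1 had 3.40 in the double deletion and 0.94 in the pht1 deletion by the authors' values, and rds1 and hsp9 had differences of 3.18 and 2.60.

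The regulators of these genes did not move alike. The transcription factor gene atf1 had a deposited log2 fold of 2.25 in the double deletion (adjusted p = 9.13e-39) and 0.10 in the pht1 deletion (adjusted p = 0.716). The gene of its partner, pcr1, had 1.59 in the double deletion and 0.37 in the pht1 deletion (adjusted p = 0.0574) in the authors' table. Transcripts of the MAP kinase gene sty1 and its activating kinase gene wis1 had deposited log2 folds of 0.07 and −0.11 in the double deletion, and 0.17 and 0.16 in the pht1 deletion. The heat shock factor gene hsf1 had 0.44 in the double deletion and 0.31 in the pht1 deletion in the authors' table. RNA levels of a kinase or factor do not report its activity.

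Chaperone genes were split into a shifted and an unshifted portion. Of 27 genes, 11 were shifted higher (40.7%) and none lower, beside 9.58% of all sense entries shifted higher, with a median difference of 0.70. The median deposited log2 fold of the list was 0.78 in the double deletion, 0.27 in the pht1 deletion and 1.21 in the xap5 deletion. The Hsp70 genes ssa1 and ssa2 had deposited log2 folds of 3.19 and 2.69 in the double deletion, and 1.18 and 0.67 in the pht1 deletion. The disaggregase gene hsp104 had 2.65 in the double deletion and 0.81 in the pht1 deletion in the authors' table. The cyclophilin gene wis2 had a deposited log2 fold of 2.94 in the double deletion and 0.84 in the pht1 deletion. For ssa2 and wis2 the deposited folds in the xap5 deletion, 3.57 and 3.53, were above those in the double deletion. The lowest members, the DnaJ-family gene scj1 and the co-chaperone gene sgt2, had differences of −0.70 and −0.48. Of the shifted chaperone genes, hsp16 and hsp9 are also counted in the stress list.

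Short motifs were looked up in the 250 bases before the annotated start of 5112 protein genes in RefSeq (assembly ASM294v3). The motif searched for Atf1 was TGACGT, on both strands, and it was in the window of 5.52% of all these genes. It was in the window of 71 of the 380 protein genes shifted higher (18.7%), of 9 of the 129 shifted lower (6.98%) and of 197 of the 4528 not shifted (4.35%). In the stress list 8 of 38 windows held it (21.1%), and all 8 belonged to genes shifted higher. The heat shock motif searched was GAANNTTC, which reads the same on both strands. It was in 9.49% of all windows, in 10% of those shifted higher, in 6.2% of those shifted lower and in 13 of 27 of the chaperone list (48.1%). Of the 11 chaperone genes shifted higher, 8 held it. The motif ACGCGT, read by the MBF factor of S phase genes, was in 2.64% of all windows and in 2.11% of those shifted higher. For 600 of the 5112 genes the annotated start is the start of the coding sequence, so that the window may lie inside the transcript. No test was run on these shares, and a match describes letters, not binding.

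The windows below are shown because they belong to shifted genes of the stress and chaperone lists, hold the motif of their list and overlap no other annotated gene. Each is the 250 bases before the gene start, 5′ to 3′ on the gene's strand, from RefSeq assembly ASM294v3, with the motif of the list in capitals. In ctt1 (III:58834-59083, minus strand) the match begins 59 bases before the start. In rsv2 (II:3532678-3532927, plus strand), which encodes a zinc finger transcription factor, 3 matches were found, 2 of which overlap as the palindrome nearest the start. In hsp16 (II:2660993-2661242, minus strand) the heat shock match begins 93 bases before the start. In the Hsp90 gene hsp90 (I:3891140-3891389, minus strand) it begins 57 bases before the start. In aha1, a gene of an Hsp90 co-chaperone (II:2148803-2149052, plus strand), it begins 78 bases before the start.
ctt1: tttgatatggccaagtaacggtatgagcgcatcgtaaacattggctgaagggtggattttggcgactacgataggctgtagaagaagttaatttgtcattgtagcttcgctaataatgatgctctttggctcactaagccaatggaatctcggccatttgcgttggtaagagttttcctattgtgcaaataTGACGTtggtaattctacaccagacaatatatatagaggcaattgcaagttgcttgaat
rsv2: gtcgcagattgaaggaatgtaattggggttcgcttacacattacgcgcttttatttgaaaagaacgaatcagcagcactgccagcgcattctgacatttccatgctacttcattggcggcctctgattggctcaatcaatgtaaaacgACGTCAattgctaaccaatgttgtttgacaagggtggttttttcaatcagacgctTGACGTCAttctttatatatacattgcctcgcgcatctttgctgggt
hsp16: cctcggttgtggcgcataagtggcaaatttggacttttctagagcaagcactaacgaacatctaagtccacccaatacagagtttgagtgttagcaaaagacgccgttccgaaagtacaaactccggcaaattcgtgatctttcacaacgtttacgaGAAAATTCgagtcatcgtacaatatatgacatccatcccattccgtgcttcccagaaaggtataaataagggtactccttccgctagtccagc
hsp90: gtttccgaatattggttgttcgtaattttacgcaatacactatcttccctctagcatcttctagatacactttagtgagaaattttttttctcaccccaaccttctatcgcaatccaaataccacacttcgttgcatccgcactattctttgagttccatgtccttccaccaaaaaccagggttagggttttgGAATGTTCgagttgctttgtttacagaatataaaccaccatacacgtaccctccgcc
aha1: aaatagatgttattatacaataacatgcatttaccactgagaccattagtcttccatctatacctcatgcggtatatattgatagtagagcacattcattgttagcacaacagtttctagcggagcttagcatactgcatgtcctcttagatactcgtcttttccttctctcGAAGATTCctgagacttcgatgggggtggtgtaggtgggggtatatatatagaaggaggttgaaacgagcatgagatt

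The genes of these windows differed between the strains as follows. The deposited log2 fold of rsv2 was 3.27 in the double deletion and 1.12 in the pht1 deletion. That of hsp90 was 1.95 in the double deletion and 0.28 in the pht1 deletion by the authors' values. The difference of aha1 was 1.05. The motif stood in the windows of both strongly and weakly shifted genes.

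**Figure D2:**
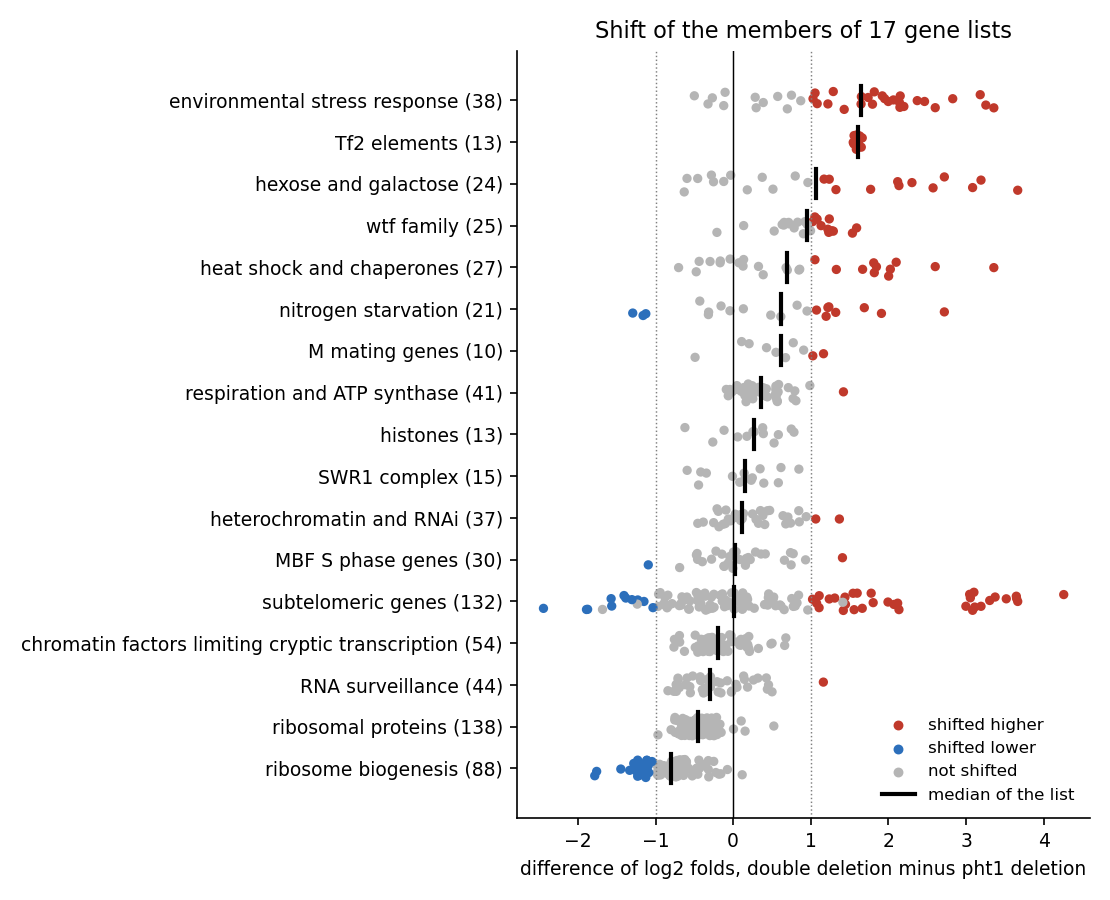
Difference of deposited log2 folds, double deletion minus pht1 deletion, of each member of 17 of the gene lists, with the number of members in parentheses. Points are entries, black bars are list medians and dotted lines mark differences of −1 and 1: the stress list has 26 of 38 members shifted higher and the ribosome biogenesis list 24 of 88 shifted lower.

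In the hexose and galactose list 12 of 24 genes were shifted higher (50%) and none lower, beside 9.58% of all sense entries shifted higher. The median difference was 1.07, 17 of the 24 had a difference above 0, and the lowest was −0.63. The invertase gene inv1 had a deposited log2 fold of 3.91 in the double deletion and 1.19 in the pht1 deletion. The gene fbp1 of fructose-1,6-bisphosphatase, an enzyme of gluconeogenesis, had 3.35 in the double deletion and 1.05 in the pht1 deletion in the authors' table. The dihydroxyacetone kinase gene dak2 and the glycerol dehydrogenase gene gld1 had deposited log2 folds of 5.35 and 4.06 in the double deletion, and 2.16 and 1.49 in the pht1 deletion. Along the galactose pathway, gal10 had a difference of 2.12 and gal1 one of 1.24, while gal7 was not shifted at 0.80. The hexose transporter genes did not move together: ght3 had a difference of 2.13, ght6 of 1.32 and ght4 of 1.17, while ght5, ght1, ght8 and ght7 lay between −0.59 and −0.12.

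Of 19 glycolysis genes 2 were shifted higher (10.5%) and 1 lower (5.26%), beside 9.58% and 2.56% of all sense entries, with a median difference of −0.39. The second enolase gene eno102, also counted in the hexose and galactose list, had a deposited log2 fold of 5.01 in the double deletion and 1.93 in the pht1 deletion. The pyruvate decarboxylase gene pdc201 had 4.46 in the double deletion and 1.49 in the pht1 deletion in the authors' table. The mitochondrial alcohol dehydrogenase gene adh4 had a deposited log2 fold of −1.17 in the double deletion and −0.17 in the pht1 deletion. Of 41 genes of respiration and ATP synthase, 1 was shifted higher, mdh1 of malate dehydrogenase, with a deposited log2 fold of 1.42 in the double deletion and an adjusted p of 1 in the pht1 deletion. The respiration list had a median difference of 0.36.

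Genes of ribosome production were lower in the double deletion than in the pht1 deletion. In the ribosome biogenesis list 24 of 88 genes were shifted lower and none higher, beside 2.56% of all sense entries shifted lower. The median difference was −0.80, with a median deposited log2 fold of −0.78 in the double deletion and 0.04 in the pht1 deletion. By the authors' adjusted p-value 81 of the 88 fell in the double deletion and 3 fell in the pht1 deletion. Over all sense entries 34.3% fell in the double deletion and 11.1% in the pht1 deletion. In the xap5 deletion 69 of the 88 fell, with a median deposited log2 fold of −0.50, beside 1183 of all 5744 sense entries. The RNA helicase gene dbp2 had a deposited log2 fold of −1.47 in the double deletion (adjusted p = 4.62e-22) and 0.31 in the pht1 deletion (adjusted p = 0.0866). The helicase gene dbp3 had −2.04 in the double deletion and −0.28 in the pht1 deletion (adjusted p = 0.137) in the authors' table. The ribosome assembly gene rlp24 had a deposited log2 fold of −1.29 in the double deletion and 0.16 in the pht1 deletion. The snoRNP gene gar1, the U3-associated gene utp6 and the nucleolar gene gar2 had differences of −1.33, −1.28 and −1.25.

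Ribosomal protein genes lay in the same direction and none reached the difference that counts. Of 138 genes none was shifted, beside 9.58% of all sense entries shifted higher and 2.56% lower, and the median difference was −0.45. By the authors' adjusted p-value 121 fell in the double deletion and 20 fell in the pht1 deletion. Beside these stand 34.3% of all sense entries that fell in the double deletion and 11.1% in the pht1 deletion. The lowest difference was that of rps2601, −0.97, with a deposited log2 fold of −0.84 in the double deletion and 0.13 in the pht1 deletion. The gene rps1902 had a difference of −0.80.

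Nitrogen genes were mixed. Of 21 members of the nitrogen starvation list 8 were shifted higher (38.1%) and 3 lower (14.3%), beside 9.58% and 2.56% of all sense entries. The median difference of the list was 0.61. Of its genes shifted higher, inv1 is also counted in the hexose and galactose list and pcr1 in the stress list. The gene of the sexual development factor ste11 had a deposited log2 fold of 2.48 in the double deletion and 0.79 in the pht1 deletion. The vacuolar protease gene isp6 had 2.95 in the double deletion and 1.04 in the pht1 deletion in the authors' table. The ammonium transporter genes differed in direction: amt3 had a deposited log2 fold of 1.76 in the double deletion and 0.53 in the pht1 deletion, and amt1 had −1.68 in the double deletion and −0.39 in the pht1 deletion. The meiotic regulator gene mei2 had a deposited log2 fold of 1.38 in the double deletion and 0.06 in the pht1 deletion, and is also in the list of transcripts removed by Mmi1. In that list 2 of 29 were shifted higher (6.9%), beside 9.58% of all sense entries. They were mei2 and dli1 of a dynein chain (difference 1.69), and the median difference of the list was 0.00.

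Thiamine, phosphate and iron lists had 10%, 21.4% and 9.09% of members shifted higher and none lower, beside 9.58% of all sense entries. The thiamine-repressible gene nmt1 had a deposited log2 fold of −0.30 in the double deletion (adjusted p = 0.455), −1.91 in the pht1 deletion (adjusted p = 5.06e-06) and 2.52 in the xap5 deletion. It fell in the pht1 deletion and did not pass the authors' test in the double deletion, and the other 9 thiamine genes were not shifted. The thiazole synthesis gene thi2 fell by 1.53 in the double deletion and by 2.21 in the pht1 deletion in the authors' table. Of 14 phosphate genes pqr1, gde1 and pho842 were shifted higher, with differences of 1.37, 1.15 and 1.09. Of 22 iron genes shu1 and isu1 were shifted higher, with differences of 1.54 and 1.52.

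Lists of the chromatin machinery held few shifted genes or none, beside 9.58% of all sense entries shifted higher and 2.56% lower. None of 15 genes of the SWR1 complex list, which also holds the deleted pht1, was shifted, and the median difference was 0.15. The largest were msc1, with a deposited log2 fold of 0.86 in the double deletion and 0.01 in the pht1 deletion, and swc3, with a difference of 0.62. None of 54 chromatin factors that limit cryptic transcription was shifted (median −0.20), and the largest differences were −0.76 for both sds3, a subunit gene of the Clr6 deacetylase complex, and tfs1 of elongation factor TFIIS. None of 13 entries of the histone list was shifted, and hhf3 and hht3 had the largest differences, 0.78 and 0.75. That list includes pht1, which is deleted in both strains, and ams2 and teb1, which are not histone genes. Of 37 heterochromatin and RNAi genes 2 were shifted higher, sap1 and bdf2, with differences of 1.37 and 1.06 and a list median of 0.12. The H3K9 methyltransferase gene clr4 and the Dicer gene dcr1 had deposited log2 folds of 0.26 and 0.24 in the double deletion, and −0.48 and −0.44 in the pht1 deletion, and were not shifted. Of 44 RNA surveillance genes 1 was shifted higher, the poly(A) polymerase gene cid13, with a difference of 1.16, and the median was −0.29. The meiotic RNA elimination gene mmi1 in that list had a difference of −0.84.

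Shares shifted higher in the cell cycle and mating lists lay on both sides of the 9.58% of all sense entries. They were 3.33% of MBF genes, 7.41% of cell separation genes, 20% of M mating genes and 0% of P mating genes. Of MBF genes 3.33% were shifted lower, beside 2.56% of all sense entries. Of 30 MBF S phase genes cdm1, a subunit gene of DNA polymerase delta, was shifted higher (difference 1.41) and the MBF activator gene rep2 was shifted lower (−1.09), with a median of 0.02. Of 27 cell separation genes 2 were shifted higher and none lower, with a median of 0.17. One of them was the glucanase gene exg3, with a difference of 1.26. Of 10 M mating genes the M-factor genes mfm3 and mfm2 were shifted higher, with differences of 1.16 and 1.03, and the median was 0.61. Of 5 P mating genes none was shifted, and the largest differences were 0.68 for map1 and −0.57 for map3. The list of 6 deleted and marker genes held 1 shifted entry, xap5 itself, and his5 had a difference of −0.73.

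**Figure D3:**
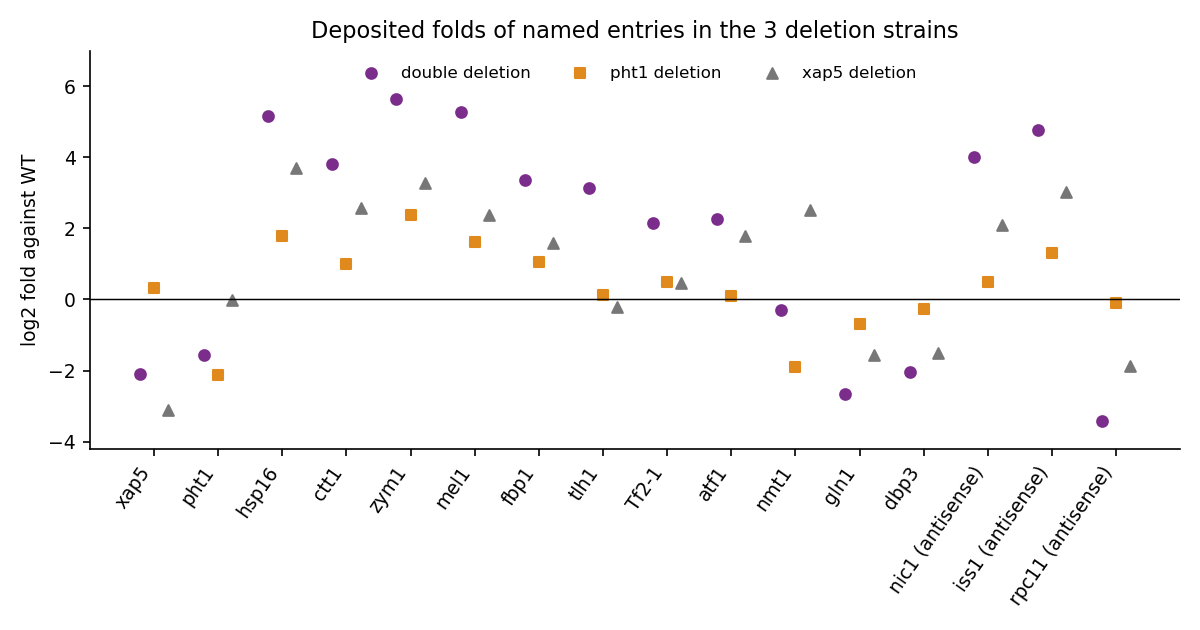
Deposited log2 fold against wild type of 16 named entries in the double deletion (circles), the pht1 deletion (squares) and the xap5 deletion (triangles). Stress genes such as hsp16 and ctt1 lie highest in the double deletion, tlh1 and Tf2-1 lie at 3.13 and 2.15 in the double deletion and below 0.5 in both single deletions, and gln1 and dbp3 lie lowest in the double deletion.

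Genes near the ends of chromosomes I and II were shifted in both directions. Of 132 sense entries within 100 kb of an end in the reference, 33 were shifted higher (25%) and 11 lower (8.33%). Beside these stand 9.58% and 2.56% of all sense entries, and the median difference near the ends was 0.01. The subtelomeric helicase genes tlh1 and tlh2 were among the highest. The deposited log2 fold of tlh1 was 3.13 in the double deletion (adjusted p = 6.42e-74), 0.14 in the pht1 deletion (adjusted p = 0.597) and −0.20 in the xap5 deletion. That of tlh2 was 3.22 in the double deletion, 0.17 in the pht1 deletion and −0.14 in the xap5 deletion by the authors' values. They are near-identical copies and may share reads. The entry hry1, of a cation-binding domain protein, had a deposited log2 fold of 5.26 in the double deletion and 1.89 in the pht1 deletion. Among the lower entries were SPAC212.08c and SPAC212.12, of predicted cell surface proteins, and SPBPB2B2.08, which fell by 3.25 in the double deletion and by 1.68 in the pht1 deletion in the authors' table.

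Runs of neighbouring entries shifted together. By the order of genes in the reference, 7 runs of 4 or more neighbouring sense entries were shifted, all of them higher. The run from SPAC869.09 through pcm2 and mel1 to hry1 lies about 75.8 kb from an end of chromosome I and had differences between 3.11 and 4.26. The run of 6 entries from eno102 to cmt2 lies about 58.1 kb from an end of chromosome II and had differences between 1.11 and 3.65. A run on chromosome III of prl33, smp4, SPCPB16A4.06c and SPNCRNA.1162 had differences between 1.34 and 3.27. The gene smp4 of that run had a deposited log2 fold of 4.63 in the double deletion and 1.35 in the pht1 deletion. The other 4 runs began at lkh1, SPACUNK4.17, SPBC19C7.04c and osr2, with differences between 1.00 and 2.72. How many such runs would arise by chance was not tested.

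Noncoding RNAs of the sense table reached differences nearly as large as those of protein genes. SPNCRNA.540 had a deposited log2 fold of 5.92 in the double deletion (adjusted p = 1.46e-29), 1.97 in the pht1 deletion (adjusted p = 0.0256) and 4.51 in the xap5 deletion. SPNCRNA.534 had 3.15 in the double deletion (adjusted p = 5.3e-07) and −0.26 in the pht1 deletion (adjusted p = 1) in the authors' table. The other 6 of the 8 highest were SPNCRNA.1541, SPNCRNA.31, SPNCRNA.1256, SPNCRNA.988, SPNCRNA.602 and SPNCRNA.549, with differences between 3.02 and 3.42. The lowest was the centromeric RNA SPNCRNA.485, with a deposited log2 fold of −2.90 in the double deletion (adjusted p = 3.18e-05) and −0.73 in the pht1 deletion (adjusted p = 0.298). The other 7 lowest were SPNCRNA.630, SPNCRNA.1370, prl6, SPNCRNA.1124, SPNCRNA.944, SPNCRNA.1308 and SPNCRNA.1463, with differences between −1.89 and −1.31. SPNCRNA.630 fell by 1.14 in the double deletion and rose by 0.75 in the pht1 deletion in the authors' table.

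The retrotransposon Tf2 was higher in the double deletion. Tf2 is the LTR retrotransposon with full-length copies in this yeast. All 13 Tf2 entries of the sense table were shifted higher, with differences between 1.55 and 1.66. The deposited log2 fold of Tf2-1 was 2.15 in the double deletion (adjusted p = 5.18e-49), 0.49 in the pht1 deletion (adjusted p = 0.00499) and 0.45 in the xap5 deletion. The copies are near-identical and share reads, so the 13 are not separate observations. In the wtf family of spore killer genes and their relatives, 11 of 25 were shifted higher (44%) and none lower. The median of the family was 0.95, and 9.58% of all sense entries were shifted higher. The gene wtf7 had a deposited log2 fold of 1.31 in the double deletion and −0.28 in the pht1 deletion. The pseudogenes wtf3, wtf22 and wtf2 and the genes wtf15 and wtf6 had differences between 1.23 and 1.54. These genes too are copies of one another.

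LTRs were measured as a table of their own. Of 117 LTRs 56 were shifted higher (47.9%) and none lower (0%), and the median difference of the table was 1.11. With each difference taken relative to that median, 1 LTR was shifted higher and 7 lower, so the surplus of higher shifts was not kept. Taking the median away evens the split around the median, and does not fix the counts beyond the threshold. The quartiles of the differences were 0.20 and 1.46, and 80.3% of the LTRs had a difference above 0. Of 68 LTRs of the Tf2 type 41 were shifted higher (60.3%, median 1.27), and of 38 of the Tf1 type 10 were (26.3%, median 0.52). Notes call some LTRs identical or highly similar to a Tf2 LTR. LTRs so alike may share reads, so these counts are not of separate observations. Some LTRs also overlap intergenic regions counted below, such as the LTR at I 4021977 to 4022325 and the region at I 4022055 to 4022491. The notes of 3 LTRs name both types, and 2 of these were shifted higher. Of the 8 LTRs whose note names neither type 3 were shifted higher. The median deposited log2 fold of all LTRs was 1.81 in the double deletion and 0.79 in the pht1 deletion.

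The 5 highest shifted LTRs lay on chromosomes II and III. A Tf2-type LTR at III 489375 to 489697 had the highest difference, 2.15, with authors' adjusted p-values of 0.0073 in the double deletion and 0.509 in the pht1 deletion. A degraded Tf1-type LTR at III 702136 to 702501 had 5.17 in the double deletion (adjusted p = 2.72e-05) and 3.07 in the pht1 deletion (adjusted p = 0.106) in the authors' table. A Tf2-type LTR at II 93517 to 93860 had a deposited log2 fold of 4.79 in the double deletion and 2.83 in the pht1 deletion, and rose in both by the authors' adjusted p-value. Tf1-type LTRs at III 2158747 to 2159089 and at III 2380886 to 2381185 had differences of 1.98 and 1.89. Coordinates are those of the authors' tables, whose annotation is Ensembl EF2.12. They were placed among the genes of the reference by position, and 114 of the 117 LTRs coincide there with an annotated LTR.

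**Figure D4:**
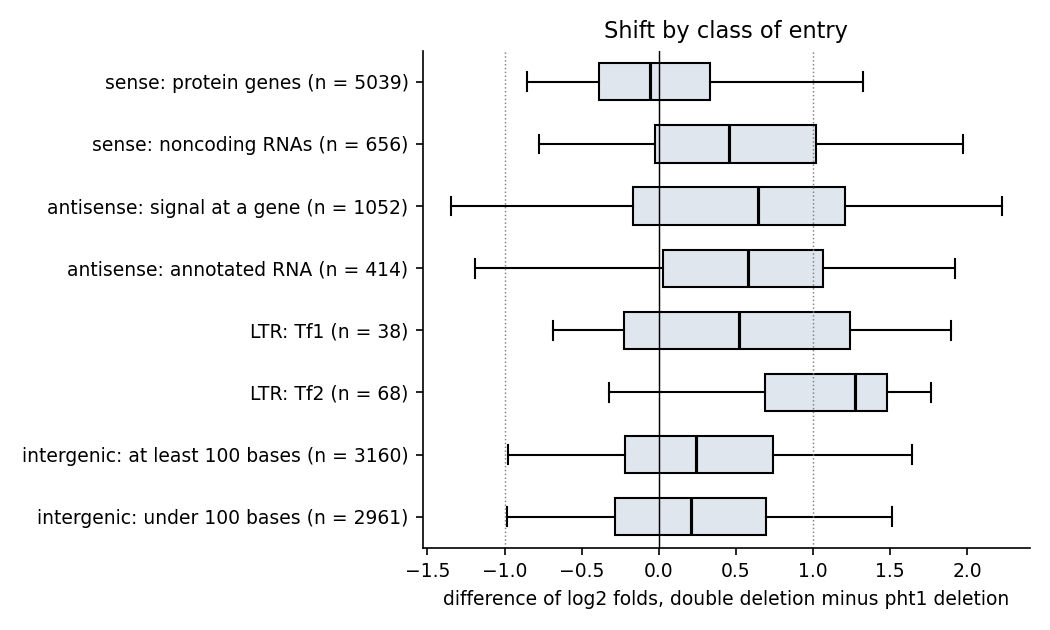
Difference of deposited log2 folds, double deletion minus pht1 deletion, by class of entry. Boxes span the quartiles with the median as a line, whiskers run to the 5th and 95th percentiles, and dotted lines mark −1 and 1: the median is −0.06 for protein genes, 0.64 for antisense signal at genes and 1.27 for Tf2-type LTRs.

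Antisense entries were shifted higher more often than lower, in a table that the authors limited to entries with a change. Its header gives a change against wild type at p under 0.01, and 1530 of its 1561 entries reached an adjusted p under 0.01 in 1 or more of the 3 strains. Its shares therefore describe chosen entries. Of the 1561, 512 were shifted higher (32.8%) and 129 lower (8.26%), and the median difference was 0.62. Relative to that median 182 were shifted higher and 290 lower, so the surplus of higher shifts was not kept. Taking the median away evens the split around the median, and does not fix the counts beyond the threshold. The share of higher among the shifted was 79.9% as deposited and 38.6% relative to the median. Signal antisense to 1052 annotated genes gave 359 shifted higher and 97 lower. Annotated antisense RNAs gave 119 of 414 higher and 31 lower, and the 95 other noncoding RNAs gave 34 higher and 1 lower. Of the 512 entries shifted higher, 506 had an authors' adjusted p-value under 0.05 in the double deletion and 140 had one in the pht1 deletion.

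The highest antisense difference at a gene was at glm1, annotated as a kinetochore-associated protein. Its deposited antisense log2 fold was 3.81 in the double deletion (adjusted p = 7.68e-06), 0.16 in the pht1 deletion (adjusted p = 1) and 0.74 in the xap5 deletion (adjusted p = 0.817). Antisense signal at the nickel transporter gene nic1 had a deposited log2 fold of 4.00 in the double deletion (adjusted p = 1.08e-21), 0.50 in the pht1 deletion (adjusted p = 0.56) and 2.09 in the xap5 deletion. At iss1, of a cleavage and polyadenylation cofactor, it was 4.78 in the double deletion, 1.31 in the pht1 deletion and 3.01 in the xap5 deletion in the authors' table. These 3 rose in the double deletion, and of them iss1 also rose in the pht1 deletion. The other 7 of the 10 highest were at mug9, ppr6, ure7, SPCC1020.13c, SPCC191.10, SPBC1778.09 and ade5, with differences between 3.11 and 3.57. SPCC1020.13c is the gene next to the deleted xap5 described above.

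The lowest antisense differences fell into 2 kinds by their values. At rpc11, of an RNA polymerase III subunit, the deposited antisense log2 fold was −3.41 in the double deletion (adjusted p = 0.000132) and −0.09 in the pht1 deletion (adjusted p = 0.987). At stg1, of an actin-modulating protein, it was −2.39 in the double deletion (adjusted p = 0.000247) and 0.30 in the pht1 deletion (adjusted p = 0.681) in the authors' table. Both fell in the double deletion. At hot15 the deposited antisense log2 fold was −0.04 in the double deletion (adjusted p = 1) and 2.46 in the pht1 deletion (adjusted p = 0.00276). At lto1 it was 0.44 in the double deletion (adjusted p = 0.668) and 2.69 in the pht1 deletion (adjusted p = 5.37e-06) by the authors' values. The signal at hot15 and lto1 thus rose in the pht1 deletion and did not pass the authors' test in the double deletion. The other 6 were at SPAC222.17, lsm5, ypt71, fyu1, rpl1902 and SPAPB18E9.04c, with differences between −2.43 and −2.18. Over all 129 antisense entries shifted lower, 60 had an authors' adjusted p-value under 0.05 in the double deletion and 79 had one in the pht1 deletion.

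Annotated antisense RNAs covered the same range. SPNCRNA.1075 had a deposited log2 fold of 5.30 in the double deletion (adjusted p = 2.35e-16), 1.42 in the pht1 deletion (adjusted p = 0.468) and 4.37 in the xap5 deletion. SPNCRNA.686 had 3.60 in the double deletion, 0.26 in the pht1 deletion and 1.10 in the xap5 deletion in the authors' table. SPNCRNA.931, SPNCRNA.1223 and SPNCRNA.754 had differences between 3.15 and 3.70. The lowest were SPNCRNA.1307 and SPNCRNA.1371, both at −2.46, and SPNCRNA.1697, SPNCRNA.655 and SPNCRNA.710 between −2.22 and −1.96.

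The sense signal of the same gene was mostly not shifted where the antisense signal was. Of 353 genes with antisense signal shifted higher and a sense entry, 25 had sense signal shifted higher, 18 lower and 310 neither. The median sense difference over the 353 was −0.09. At nop52, a nucleolar gene, the antisense difference was 2.50 and the deposited sense log2 fold was −1.01 in the double deletion and 0.22 in the pht1 deletion. At utp6 the antisense difference was 1.99 and the sense difference was −1.28. At gal10 both strands were shifted higher, with an antisense difference of 2.90 and a sense difference of 2.12. Among 595 genes whose antisense signal was not shifted, 44 had sense signal shifted higher and 6 lower. Of 97 genes whose antisense signal was shifted lower, 19 had sense signal shifted higher and 1 lower, among them the chaperone genes hsp104 and ssa1 with antisense differences of −1.19 and −1.31. These counts stand beside 9.58% of all sense entries shifted higher and 2.56% lower, and their differences were not tested.

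Some of the antisense signal shifted higher lay beside an opposite-strand entry that was also shifted higher. Of 247 genes with antisense signal shifted higher and an opposite-strand neighbour within 1 kb or overlapping, 70 had such a neighbour shifted higher (28.3%). Where the antisense signal was not shifted the count was 72 of 461 (15.6%), and where it was shifted lower it was 9 of 84 (10.7%). Over 3843 protein genes with an opposite-strand entry in that window the share was 10.8%. At nic1 the overlapping neighbour SPCC757.02c had a deposited log2 fold of 5.09 in the double deletion and 1.45 in the pht1 deletion. At iss1 the overlapping neighbour cum1 had 5.36 in the double deletion and 1.56 in the pht1 deletion in the authors' table. At avl9 the antisense difference was 2.73 and that of the overlapping stress gene ddr48 was 3.78. At SPAC343.20 the antisense difference was 3.04 and that of the overlapping gene rds1 was 3.18. In each of these 4 pairs the antisense entry and the neighbour lie on the same strand and overlap in the reference, so the same reads could enter both, which was not tested. Of the 247, 177 had no opposite-strand neighbour shifted higher in the window, among them mug9, ppr6, SPBC1778.09 and ade5.

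**Figure D5:**
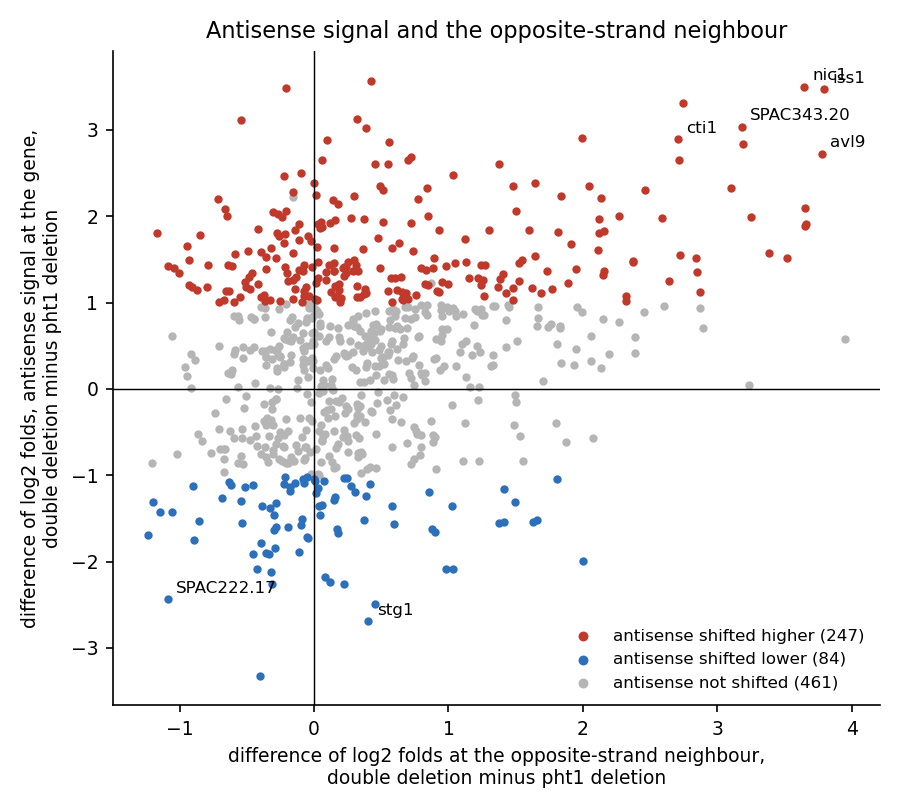
Difference of deposited log2 folds, double deletion minus pht1 deletion, of antisense signal at a gene (vertical) and of an opposite-strand neighbour within 1 kb or overlapping (horizontal). Where a gene had several such neighbours, the one with the highest difference is plotted, so horizontal values are maxima. Points are 247 genes with antisense signal shifted higher, 84 shifted lower and 461 not shifted; nic1, iss1 and avl9 lie at the upper right, and many red points lie near 0 on the horizontal axis.

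Intergenic regions too were shifted higher more often than lower. Of 6121 regions 489 were shifted higher (7.99%) and 47 lower (0.768%), with a median difference of 0.22. Of 3160 regions of at least 100 bases 362 were shifted higher and 26 lower, and of 2961 shorter ones 127 were shifted higher and 21 lower. Of 109 regions within 100 kb of an end of chromosome I or II 26 were shifted higher (23.9%) and 5 lower (4.59%), against 463 higher (7.7%) and 42 lower (0.699%) of 6012 elsewhere. The median difference was 0.23 near the ends and 0.22 elsewhere. Of the 489 regions shifted higher, 484 had an authors' adjusted p-value under 0.05 in the double deletion and 26 had one in the pht1 deletion. Of the same 489, 202 were flanked by a sense entry shifted higher (41.3%), and of 5585 regions not shifted 683 were (12.2%). Whether these regions hold the ends of their neighbours' transcripts was not tested.

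The highest intergenic difference lay between gap1 and sds23 on chromosome II (948224 to 948887). Its deposited log2 fold was 5.58 in the double deletion (adjusted p = 1.07e-09), 0.46 in the pht1 deletion (adjusted p = 1) and 2.97 in the xap5 deletion (adjusted p = 0.0464). A region beyond tlh2 at the end of chromosome II (4532900 to 4539804) had 5.03 in the double deletion (adjusted p = 3.47e-27), 1.37 in the pht1 deletion (adjusted p = 0.079) and 1.16 in the xap5 deletion in the authors' table. A region between put4 and SPAC869.09 on chromosome I (5496598 to 5496843) had a deposited log2 fold of 6.61 in the double deletion and 3.10 in the pht1 deletion (adjusted p = 0.0549). It adjoins the run of shifted genes that begins at SPAC869.09. Regions between isu1 and yfh7 on chromosome I (519018 to 519256) and within prl65 on the same chromosome (2472750 to 2472860) had differences of 3.99 and 3.96. The other 3 of the 8 highest were 2 stretches within SPBPB21E7.11 (II 62886 to 62943 and 62450 to 62597), with differences of 4.63 and 3.67, and a stretch of 2 bases within lsd90 (II 1950051 to 1950052), with 3.60.

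The 8 lowest intergenic differences held regions that fell in the double deletion and regions that rose in the pht1 deletion. The lowest lay before mta1 on chromosome I (792275 to 792377), with a deposited log2 fold of −3.83 in the double deletion (adjusted p = 0.0014) and 0.08 in the pht1 deletion (adjusted p = 1). Regions beside zrg17 on chromosome II (1946569 to 1946861) and beside rmr1 on chromosome III (1776074 to 1776415) had deposited log2 folds of −0.81 and −0.59 in the double deletion, and 2.17 and 1.82 in the pht1 deletion. Both rose in the pht1 deletion and did not pass the authors' test in the double deletion. The other 5 were stretches beside or within smp3, sec6102, SPAC110.06, vhc1 and sec61, with differences between −2.90 and −2.24. Of these, the stretches within smp3, SPAC110.06 and sec61 had authors' adjusted p-values of 0.0476, 0.0443 and 0.0458 in the double deletion, close to the threshold.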

How the data were processed

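Strand-specific RNA libraries (100-base single reads, 2 lanes) were compared by the authors, each deletion strain against wild type. The authors deposited 4 tables of log2 folds and adjusted p-values, and the base of 2 is taken from the convention of edgeR. BWA 0.5.8c and edgeR are named in the submitters' processing notes, without their roles. The count normalization and the adjustment method are not given in the sources used here. Per the file headers, the antisense table holds entries with a change at p under 0.01, by Ensembl EF2.12 annotation, and the other 3 tables hold all annotated entries. No value per library was used, so no test, SD or interval was computed.

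Differences and counts were computed with Python 3.11.15, pandas 2.3.3 and numpy 2.4.6, and the counting was checked on simulated data. Names and neighbours came from RefSeq (assembly ASM294v3), which matched 5639 of 5747 sense and 1540 of 1561 antisense identifiers. Subtelomeric genes were taken by their reference position, because the sense table gives none. The pair of strains, the 26 gene lists and the rules were chosen with earlier results of these data known. Named entries were the highest and lowest shifted entries of each class (15 protein genes, 8 noncoding RNAs, 10 antisense signals, 5 antisense RNAs, 5 LTRs and 8 intergenic regions each way), the entries next to the deleted genes and up to 6 shifted members of each list. A gene named beyond these was chosen after its values were seen. One gene that this rule names is not reported here.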

Additional observations from a re-analysis of the deposited data

How the results depend on the processing

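No paired analysis was possible because no value per library was used, and for the same reason no library could be left out. Counts were repeated with other settings, and each pair below gives entries shifted higher and then lower. With a difference of at least the log2 of 1.5, counts were 1044 and 719 in the sense table, 797 and 232 in the antisense table, 66 and 2 among LTRs and 738 and 88 among intergenic regions. With a difference of at least 2 they were 143 and 5, 100 and 17, 2 and 0, and 81 and 9 in the same order. Without a condition on the adjusted p-value, LTRs gave 64 and 2 and intergenic regions 935 and 296. With the adjusted p-value of the double deletion alone, the lower counts were 60 in the antisense and 31 in the intergenic table. With adjusted p under 0.01, 17 intergenic regions were shifted lower, and with regions of at least 100 bases 26 were. Relative to the median of each table, the antisense counts were 182 and 290 and the LTR counts 1 and 7. Their surplus of higher shifts was thus not kept, while the sense counts were 561 and 142 and the intergenic counts 351 and 70. This setting evens the split around the median, and does not fix the counts beyond the threshold. Why the tables differed in this was not tested. Leaving out folds above 10 in size changed no count, and leaving out entries with near-identical copies gave 493 and 136 in the sense table. Of 26 lists, 12 had a share of higher members above that of all sense entries, 12 relative to the sense median and 17 at the log2 of 1.5. For the share of lower members the numbers of lists were 6, 5 and 8. Of the 52 list counts 29 moved at the log2 of 1.5, by more than 1.5 times or from a count of 0. Among them were ribosome biogenesis (68 lower) and the wtf family (22 higher). Precision per entry is limited by the count behind it, which is unknown here.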
